A study of Drosophila melanogaster with 30 samples.

Results

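The gustatory receptor (Gr) genes were read in RNA from whole heads of *Drosophila melanogaster* lines selected for their response to an odor. Members were all genes whose symbol in the count files is Gr followed by digits and a lower-case letter, which gave 60 of the 17471 genes counted. All 60 were protein coding genes of the BDGP6.54 annotation, with 17 on chromosome arm 2L, 13 on 2R, 11 on 3L, 13 on 3R and 6 on X.

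The flies came from an outbred population made by intercrossing inbred lines of the *Drosophila* Genetic Reference Panel. BUT+ lines were founded in every generation from flies that had moved to the odor side of a T-maze with 2,3-butanedione (BUT), and BUT- lines from flies on the side without odor. CYC+ and CYC- lines were made in the same way with cyclohexanone (CYC), and control lines from flies taken from a randomly picked side of a maze with no odor. Each of the 5 treatments had 3 separately kept lines, and each line gave 2 samples of pooled heads from young adult females, 30 libraries in all. The line was the unit that was selected, so 3 lines stand behind each treatment, and a pool of heads gives no spread between single flies. No treatment was bred for a response to a taste.

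Gr proteins form ion channels in the dendrites of taste neurons, which sit in sensilla on the proboscis, legs, wing margin and pharynx. Sugar-sensing neurons use members of a sweet clade, in which *Gr64f* acts as a common co-receptor, and neurons for bitter compounds use large sets of members that share a few common ones. A pair of members, *Gr21a* and *Gr63a*, works in antennal neurons that sense carbon dioxide, and others act in the brain, gut or thermosensory cells. A head holds only part of these organs, since legs and wings were left out.

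The smallest library held 21194086 counts, the median one 29967406 and the largest 38621924, so that 1 CPM (a count scaled to the library total) was 21.2 reads in the smallest library. CPM values below were scaled by the trimmed mean of M values (TMM), and a mean ± SD is over the 3 line means of a treatment. The heads were checked on fixed marker genes. Neuron markers summed to 1570 to 2762 CPM per library, photoreceptor markers to 31470 to 44920 CPM and the 3 antennal markers to 346.5 to 498.7 CPM. Of tissues outside the head, testis markers reached 0.216 CPM at most and ovary markers 5.07 CPM, while no member exceeded 3.48 CPM in any library. Midgut trypsins varied between 0.0840 and 135.9 CPM. Their mean sum was 8.79 CPM in BUT+, 30.6 in BUT-, 6.12 in CYC+, 36.8 in CYC- and 38.3 CPM in control, with overlapping libraries. These differences were not tested, nor was their part in the Gr values.

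Gr transcripts were scarce. All members together had 18745 of 933300369 reads, or 20.1 CPM, and 350 to 904 reads per library (median 631). A gene was taken as detected where 15 or more libraries had 1 CPM or more, which 9 of the 60 members reached, against 19 of 60 odorant receptor (Or) genes and 12 of 66 ionotropic receptor (Ir) genes. These 9 were *Gr64f*, *Gr63a*, *Gr21a*, *Gr39a*, *Gr28b*, *Gr32a*, *Gr61a*, *Gr66a* and *Gr33a*, and they held 73.8% of the member reads. Another 35 members had at least 30 reads over all libraries, 11 had fewer and 5 had none. *Gr33a* was just inside the filter with exactly 15 libraries at 1 CPM (903 reads), and *Gr43a* just outside with 2 (596 reads).

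A few groups of members held most of the reads. The common bitter members (*Gr32a*, *Gr33a*, *Gr39a*, *Gr66a* and *Gr89a*) had 27.7% of the reads, the sweet clade 23.1%, the carbon dioxide pair 21.9% and the Gr28 pair 7.2%. The sweet share rests on 5 of the 9 sweet members, since the counts of the other 4 cannot be read (*Gr64b* to *Gr64e*, described with the shared exons), so its order against the bitter members is not known for the whole clade. Of the 5188 bitter reads, 1947 were of *Gr39a*, whose count pools 4 transcripts. The order of bitter over sweet therefore also rests on placing all *Gr39a* reads with the bitter members. The other 42 members, some with known ligands, shared the remaining 20.1%, and none of them passed the filter.

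Levels between genes were compared as CPM per kb of exon that no other gene covers, with the SD over all 15 line means. *Gr64f* was highest at 1.65 ± 0.30 and *Gr63a* next at 1.54 ± 0.26, less than 1 SD apart. *Gr21a* had 0.959 ± 0.201 and *Gr32a* 0.894 ± 0.182 CPM per kb, which again lay within their spread. *Gr66a* (0.705 ± 0.096), *Gr61a* (0.655 ± 0.213), *Gr33a* (0.595 ± 0.094) and *Gr39a* (0.551 ± 0.090) followed with overlapping ranges, then *Gr43a* at 0.461 ± 0.132 and *Gr28b* at 0.323 ± 0.040. *Gr39a* and *Gr28b* rank higher by plain CPM (2.1 and 1.4 CPM), and their 3807 and 4264 exon bases come from 4 and 5 transcripts pooled in 1 count each. Past *Gr28b*, the levels fell off without a gap to 0.00181 CPM per kb for *Gr22d*, which had 2 reads in all.

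**Figure D1:**
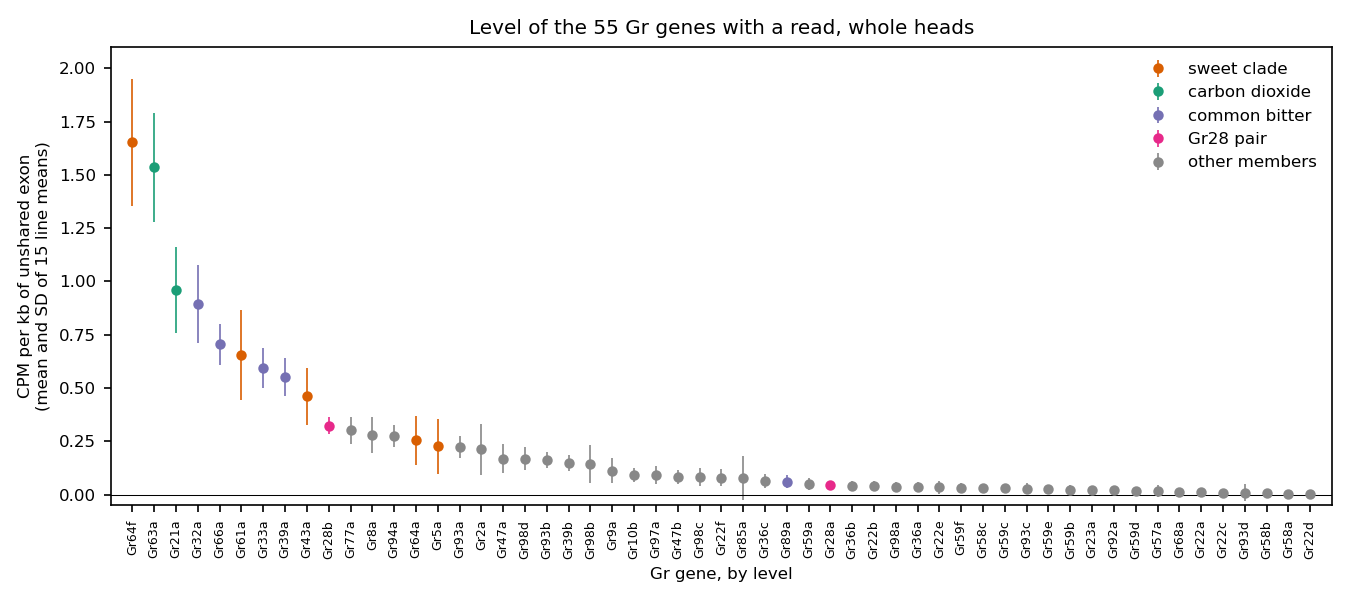
Level of each of the 55 Gr genes with any read, as CPM per kb of unshared exon (points are means and bars SDs of 15 line means, colors are roles). *Gr64f* and *Gr63a* stand highest at 1.65 and 1.54, and 10 members lie at 0.323 or above.

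The 5 members without a read share nearly all of their exons with another gene. *Gr64b* and *Gr64c*, both sweet receptors, are annotated on the same stretch of chromosome 3L (4028605 to 4032032), and all 2858 exon bases of each belong to both. *Gr64d* and *Gr64e* (3L, 4032062 to 4035703 and 4032141 to 4035703) have 2882 of 2961 and 2882 of 2909 exon bases in common. *Gr10a*, an antennal member on X, shares every exon base with the odorant receptor gene *Or10a*, which had no read either. Over the whole annotation, 388 of 424 genes (91.5%) with at least 95% of their exon bases on the same strand as another gene's had no read, against 853 of 11801 genes (7.2%) that share none. A count of 0 for these 5 members therefore says nothing of their expression. *Gr64a* and *Gr64f*, at the ends of the same cluster, are free of such overlap on their own strand and were both read.

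Overlap on the other strand mattered as well. Of genes with at least 95% of exon bases shared with the opposite strand only, 142 of 172 (82.6%) had no read, so that overlap on either strand went with missing reads. *Gr5a*, the trehalose receptor of sugar neurons, has 1108 of 1490 exon bases on the other strand from an antisense gene and had 79 reads. *Gr93d* has 1009 of 1146 bases in such an overlap and had 1 read. *Gr2a* shares 1186 of its 1562 bases with *futsch* on the same strand and had 71 reads. The counts of these 3 members may therefore miss reads.

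**Figure D2:**
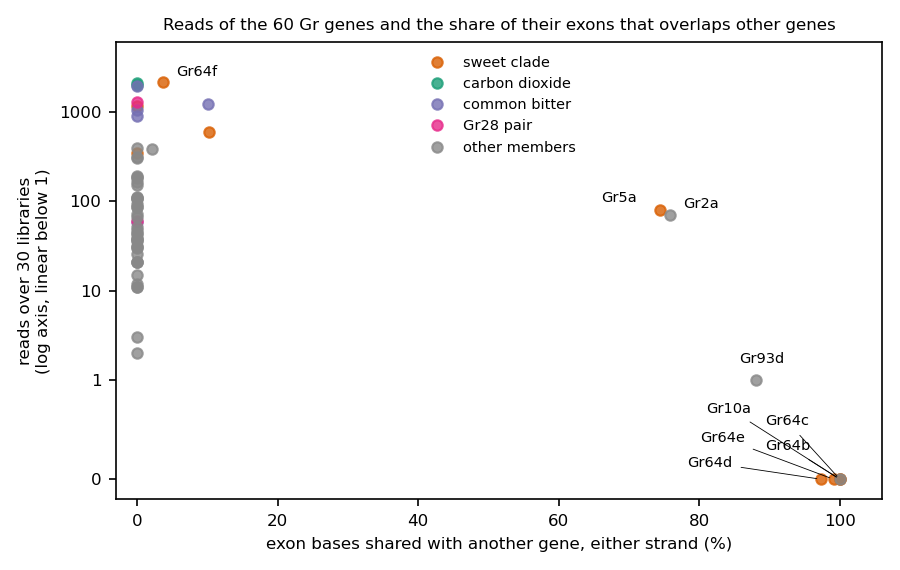
Reads of each of the 60 Gr genes over the 30 libraries (log axis, linear below 1) against the percent of its exon bases that another gene on either strand also covers. The 5 members with no read all lie at 97.3% or above, and the 9 detected members lie at 10.1% or less.

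The study set each selected treatment against the control and the 2 directions of selection against each other, which gives 6 comparisons. Members were tested in a pair of edgeR quasi-likelihood fits with Benjamini-Hochberg adjustment over all genes of the fit, the first on the 9240 genes past the 1 CPM filter with 9 members, the second on the 12684 genes with at least 30 reads in all, with 44 members. The threshold for a call was an adjusted p of 0.1. The fits count the 2 samples of a line as separate, and no member was called in any of the 6 comparisons when they were summed.

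Few members were called in any comparison. In BUT+ *vs.* control, 1 of 9 members was called in the first fit, where 2.99% of all genes were, and 1 of 44 in the second, where 2.39% were, both times *Gr64f*. In BUT- *vs.* control, no member of 9 was called (4.7% of all genes) and 1 of 44 was (3.87%), *Gr98b*. In BUT+ *vs.* BUT-, no member was called in either fit (0.66% and 0.442% of all genes). The same held for CYC+ *vs.* control (7.02% and 6.05%), CYC- *vs.* control (3.74% and 3.12%) and CYC+ *vs.* CYC- (1.54% and 0.915%). With 9 and 44 members, a count of 0 or 1 is too small to set the family apart from all genes.

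At an unadjusted p under 0.05, the second fit held 8 of 44 members in BUT+ *vs.* control, 5 in BUT- *vs.* control, 2 between the BUT directions, 5 in CYC+ *vs.* control, 3 in CYC- *vs.* control and 0 in CYC+ *vs.* CYC-. Of all genes in that fit, 14%, 15%, 9.43%, 18.4%, 14.1% and 13.2% had such a p in the same order. The first fit held 1, 1, 1, 2, 1 and 0 of 9 members, beside 14.7%, 16.2%, 9.89%, 20.1%, 14.5% and 14.7% of all genes. DESeq2 called no further member in the first fit except *Gr61a* in CYC- *vs.* control, and in the second fit it added *Gr85a* in BUT+ *vs.* control and *Gr61a* in CYC- *vs.* control. Limma voom with the line as a random block called *Gr64f* in BUT+ *vs.* control (first fit) and *Gr98b* in BUT- *vs.* control (second fit) and no other member. The share of all genes called by DESeq2 or voom is not given here, so these calls do not set the members apart. The members had no common direction in the second fit, where 22 of 44 were above 0 in BUT+, 18 in BUT-, 22 in CYC+ and 21 in CYC-, each set against control. In that fit, the median log2 fold change of the 44 members lay between -0.175 (BUT- *vs.* control) and 0.09 (BUT+ *vs.* BUT-), beside medians of all genes between -0.02 and 0.01. The median SE of a member was 0.47 to 0.53 there, against 0.17 to 0.18 for the 9 detected members, so only large changes of the scarce members could be called. The 9 detected members lay more often above control, with 8 of 9 above 0 in BUT+ (median log2 fold change 0.15), 6 in BUT- (0.05), 6 in CYC+ (0.21) and 7 in CYC- (0.15), beside medians of all genes between -0.01 and 0.01. These 4 comparisons share the control libraries. The test of whether BUT+ *vs.* BUT- differs from CYC+ *vs.* CYC- called no member in either fit (0.53% and 0.315% of all genes were called). At an unadjusted p under 0.05 it held 1 of 9 members beside 9.04% of all genes, and 2 of 44 beside 8.38%.

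**Figure D3:**
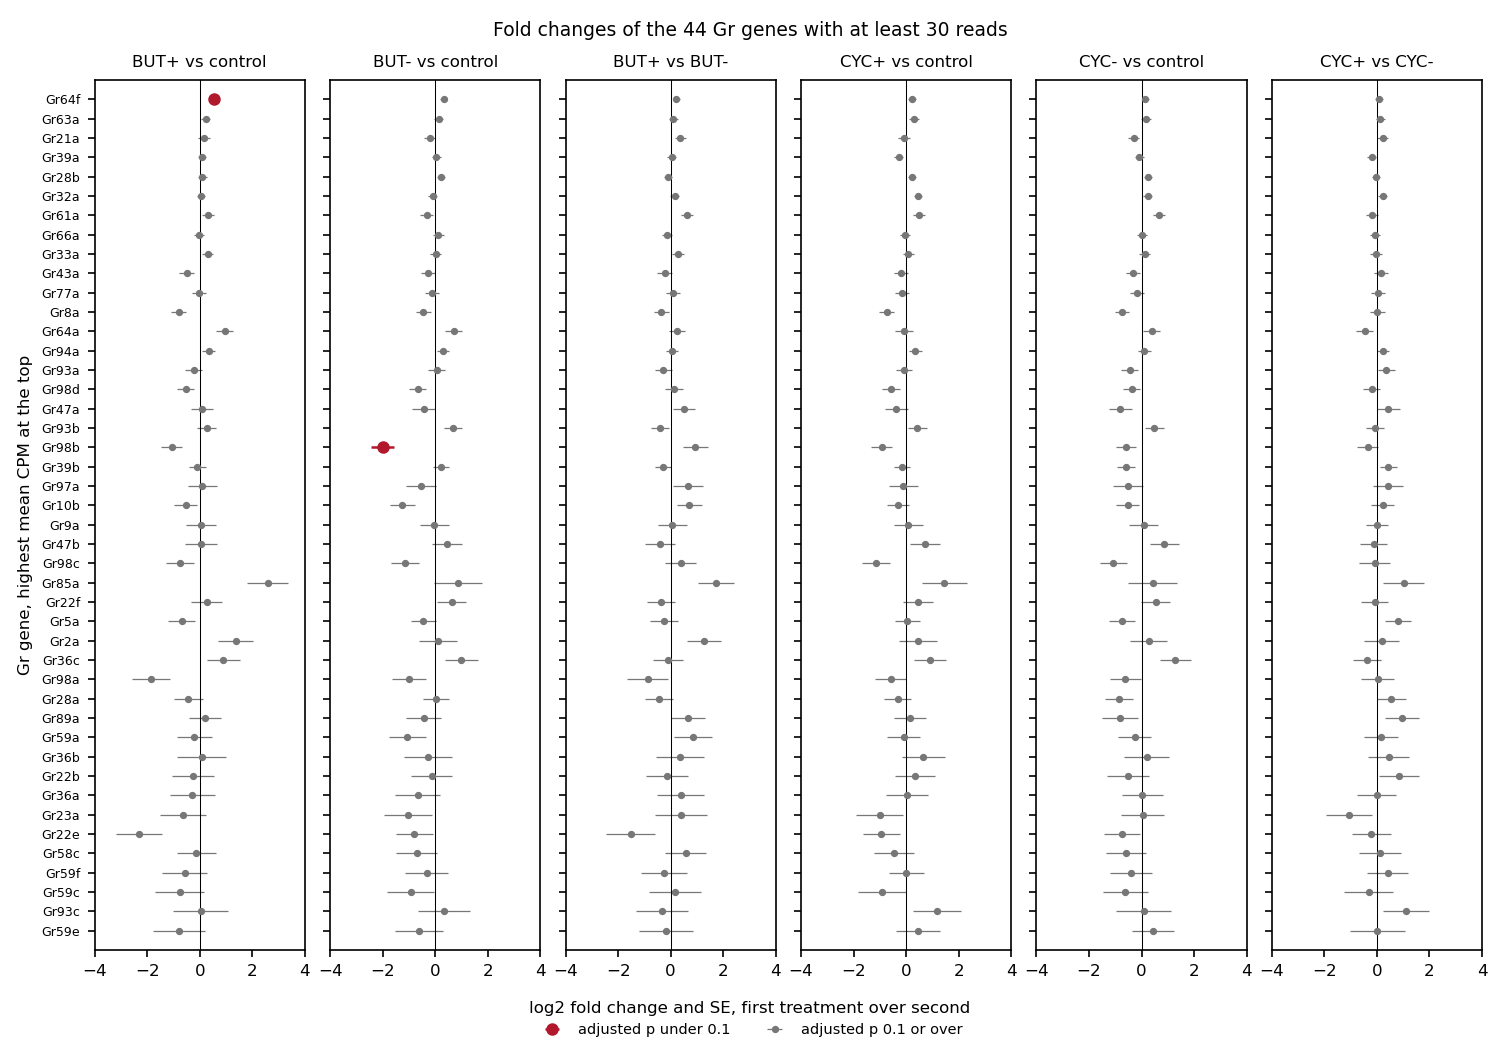
Log2 fold change and SE of the 44 Gr genes with at least 30 reads in the 6 comparisons (second fit), the first treatment over the second, with genes from the highest mean CPM at the top. *Gr64f* in BUT+ *vs.* control (0.53) and *Gr98b* in BUT- *vs.* control (-2.0) are the 2 with an adjusted p under 0.1, and error bars widen toward the low-level genes.

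A joint test of any difference among the 5 treatments called 6 of 44 members in the second fit, where it called 15.5% of all genes, and 3 of 9 in the first, where it called 19.3%. The 6 were *Gr98b* (adjusted p = 0.0287, edgeR), *Gr61a* (0.0306), *Gr64f* (0.0768), *Gr85a* (0.0870), *Gr32a* (0.0951) and *Gr64a* (0.0991), and the 3 were *Gr61a* (0.0241), *Gr64f* (0.0651) and *Gr32a* (0.0772). With each of the 15 lines left out in turn, *Gr61a* was called in 14 fits and lost without BUT- line 3, and *Gr98b* in 14 and lost without control line 1. *Gr64f* was called in 10 of them, *Gr85a* in 6, *Gr32a* in 5 and *Gr64a* in 4. The share of all genes called in these fits is not given here, so lost calls are not read as a result about the members. The joint test also counts the 2 samples of a line as separate, and with the libraries of a line summed it called 0 of 44 members in the second fit, beside 3.98% of all genes.

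Among sugar receptors, *Gr64f* was higher in BUT+ heads than in control heads. This gene, on chromosome 3L from 4035799 to 4037575, had 2.48, 2.73 and 3.48 CPM (lowest, median and highest library) in BUT+ and 1.68, 1.86 and 2.28 CPM in control heads. Every BUT+ library was above every control library, a separation that was not counted over all genes. The line means averaged 2.78 ± 0.29 CPM in BUT+ and 1.93 ± 0.24 CPM in control (SD, n = 3 lines each), a log2 fold change of 0.53 (SE 0.14, edgeR quasi-likelihood adjusted p = 0.0456 in the first fit and 0.0513 in the second). In bulk RNA, a change in the number of cells cannot be told apart from a change in RNA per cell. The call was lost without BUT+ line 3 (log2 fold change 0.44, adjusted p = 0.172), without control line 2 (0.47, adjusted p = 0.123) or without control line 3 (0.49, adjusted p = 0.161), and with the libraries of a line summed (0.54, adjusted p = 0.241). The direction held in each alternative, with adjusted p between 0.0176 and 0.877.

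*Gr64f* in the other treatments lay between those levels. BUT- had 2.02, 2.23 and 3.04 CPM (lowest, median, highest), CYC+ 1.59, 2.22 and 2.86 CPM and CYC- 1.78, 2.08 and 2.62 CPM, all overlapping both BUT+ and control. Its log2 fold changes against control were 0.32 (SE 0.14, adjusted p = 0.270, second edgeR fit) in BUT-, 0.23 (adjusted p = 0.390) in CYC+ and 0.15 (adjusted p = 0.702) in CYC-. The difference between BUT+ and BUT- was 0.21 (SE 0.14, adjusted p = 0.666), so the BUT+ level was not shown to differ from that of BUT- lines.

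*Gr61a*, a sweet clade member that senses glucose (3L, 841451 to 843701), varied among lines of 1 treatment. Its median library had 1.21 CPM in BUT+, 0.676 in BUT-, 1.52 in CYC+, 1.77 in CYC- and 1.17 CPM in control, with line means of 1.26 ± 0.14, 0.810 ± 0.282, 1.43 ± 0.29, 1.61 ± 0.44 and 1.01 ± 0.35 CPM in that order. CYC- lines 2 and 3 were high at 1.92 and 1.80 CPM and CYC- line 1 was not (1.10 CPM), while control line 2 was low at 0.614 CPM beside 1.26 and 1.17 CPM. It was the 1 member of 44 for which lines of a treatment differed beyond the 2 samples of a line (edgeR adjusted p = 0.0806, 6.58% of all genes called, and 0.0677 in the first fit, 1 of 9 members and 7.99% of all genes). No single comparison of *Gr61a* was called: CYC- *vs.* control gave 0.66 (SE 0.23, adjusted p = 0.158), CYC+ *vs.* control 0.49 (adjusted p = 0.260) and BUT+ *vs.* BUT- 0.63 (SE 0.24, adjusted p = 0.356).

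*Gr64a*, a sugar receptor needed for several sugars, lies at the other end of the Gr64 cluster (3L, 4026769 to 4028600) and was scarcer. Its libraries ranged from 0.147 to 0.754 CPM in BUT+, 0.244 to 0.882 in BUT-, 0.141 to 0.300 in CYC+, 0.236 to 0.457 in CYC- and 0.154 to 0.541 CPM in control. BUT+ lines 2 and 3 were high (0.698 and 0.637 CPM) and BUT+ line 1 was at the control level (0.272 CPM). BUT+ *vs.* control gave a log2 fold change of 0.95 (SE 0.33) with an edgeR adjusted p of 0.167. Without BUT+ line 1, the line at the control level, the member was called. Leaving out that line raises the difference, and the share of all genes called in that fit is not given here. The gained call is therefore not read as a result about *Gr64a*. The *Gr64f* to *Gr64a* ratio of CPM ranged from 3.78 to 14.1 over the 15 lines. This range was not tested against counting error, and *Gr64a* had only 4 to 32 reads per library. Lines of a treatment were not called different for *Gr64a* (edgeR adjusted p = 0.162, second fit).

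*Gr43a*, the fructose receptor that also acts in the brain, had line means of 0.531 ± 0.117 CPM in BUT+, 0.622 ± 0.098 in BUT-, 0.667 ± 0.131 in CYC+, 0.594 ± 0.120 in CYC- and 0.746 ± 0.367 CPM in control. Control line 1 alone was at 1.17 CPM, and the other 2 control lines (0.514 and 0.555 CPM) were within the range of the selected lines. *Gr5a* had 11 to 21 reads in the 6 libraries of a treatment and the smallest unadjusted p of CYC+ *vs.* CYC- (log2 fold change 0.80, SE 0.49, edgeR adjusted p = 0.50). Summed over the clade, sweet members had 5.17 ± 0.26 CPM in BUT+, 4.37 ± 0.25 in BUT-, 4.73 ± 0.32 in CYC+, 4.76 ± 0.52 in CYC- and 4.08 ± 0.77 CPM in control, with control line 1 (4.95 CPM) as high as BUT+ line 1 (4.94 CPM).

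The carbon dioxide pair showed no called difference. *Gr63a* (3L, 3894999 to 3896603) averaged 2.35 ± 0.25 CPM in BUT+, 2.20 ± 0.58 in BUT-, 2.48 ± 0.42 in CYC+, 2.26 ± 0.45 in CYC- and 2.00 ± 0.15 CPM in control. *Gr21a* (2L, 780482 to 782885) averaged 2.51 ± 0.50 CPM in BUT+, 1.94 ± 0.37 in BUT-, 2.14 ± 0.40 in CYC+, 1.82 ± 0.21 in CYC- and 2.24 ± 0.60 CPM in control. Libraries of all treatments overlapped for both genes, and the log2 fold changes of the 6 comparisons lay between -0.30 and 0.37 for *Gr21a* (SE 0.22) and between 0.10 and 0.30 for *Gr63a* (SE 0.17 to 0.18). Both proteins are needed in the same neurons. The *Gr21a* to *Gr63a* ratio of CPM varied from 0.710 to 1.55 over the 15 lines, with a median of 0.853 and a coefficient of variation of 25.2%. This spread was not tested against counting error.

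**Figure D4:**
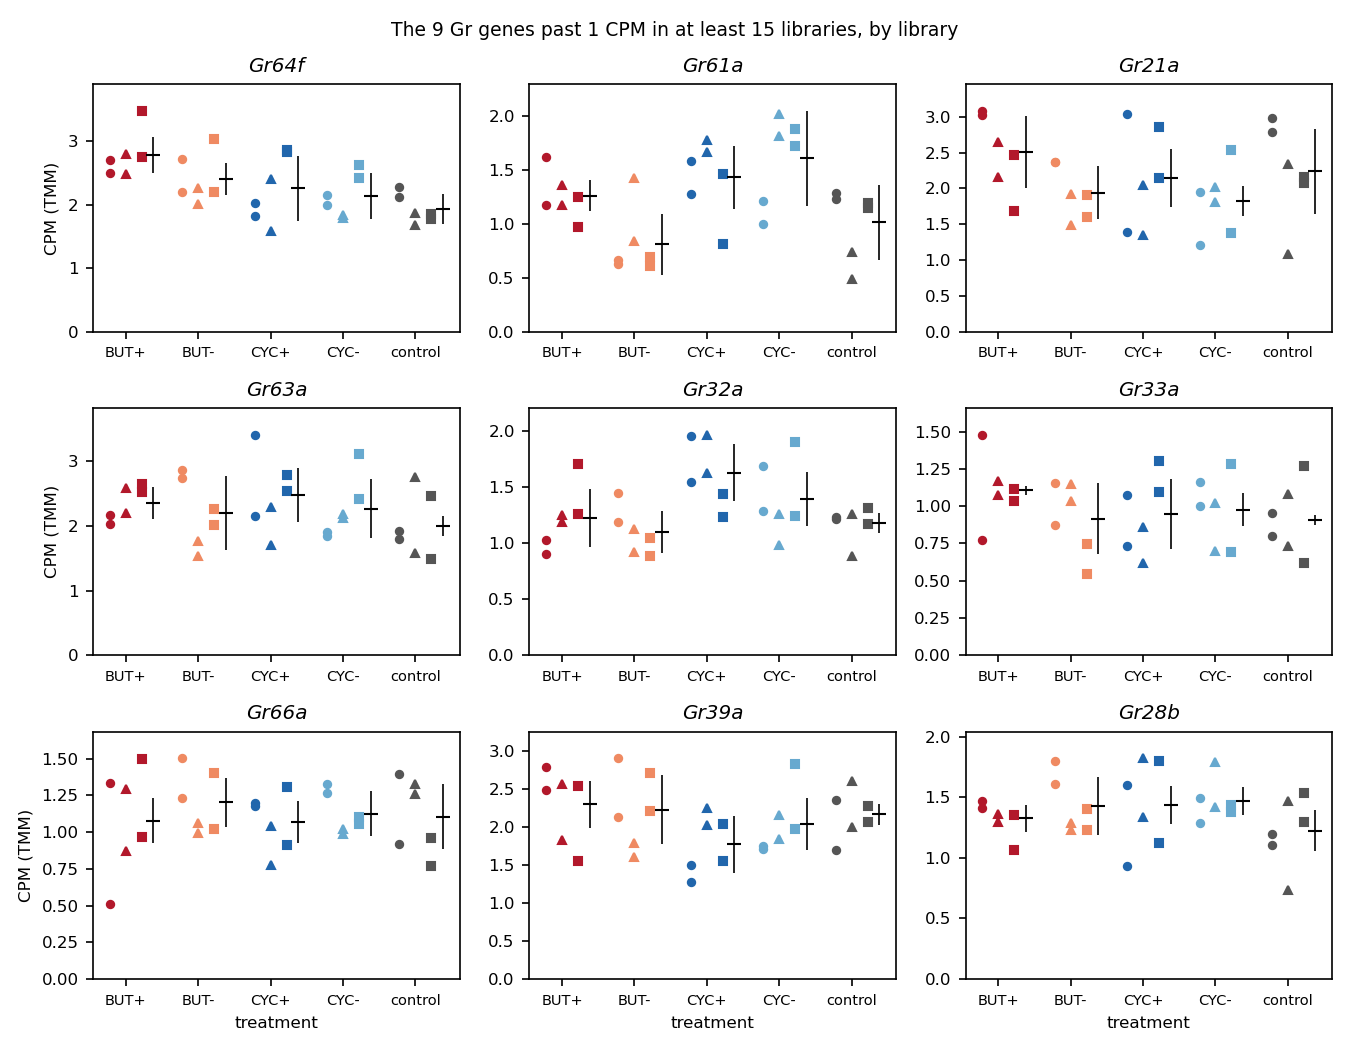
TMM-scaled CPM of the 9 detected Gr genes in every library (circles, triangles and squares are lines 1, 2 and 3), with the mean and SD of 3 line means in black. *Gr64f* of BUT+ (2.48 CPM and more) lies clear of control (2.28 CPM and less), *Gr61a* splits within CYC- and control, and the other genes overlap between treatments.

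Of the common bitter members, only *Gr32a* was called in the joint test of the 5 treatments. *Gr32a*, which also takes part in the sensing of male pheromone, lies on 2L from 11114014 to 11115823. It had 1.23, 1.58 and 1.96 CPM (lowest, median, highest library) in CYC+ and 0.885, 1.22 and 1.31 CPM in control, and 1 CYC+ library lay within the control range. Line means were 1.63 ± 0.25 CPM in CYC+ and 1.18 ± 0.09 CPM in control, with all 3 CYC+ lines above all 3 control lines. The share of all genes with such a separation was not counted. The log2 fold change of 0.46 (SE 0.16) missed the threshold with an edgeR adjusted p of 0.124. With a block by sample number, or by line and sample number, *Gr32a* was called in this comparison in both fits (the 1 member of 9 and the 1 of 44, where the block by sample number called 9.94% and 8.03% of all genes). The other means were 1.22 ± 0.26 CPM in BUT+, 1.10 ± 0.19 in BUT- and 1.39 ± 0.24 in CYC-.

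No other bitter member was called. *Gr66a*, the usual marker of bitter neurons, had treatment means between 1.07 CPM (CYC+) and 1.2 CPM (BUT-) and log2 fold changes between -0.15 and 0.12. *Gr33a*, a co-receptor for many bitter compounds, averaged 1.11 ± 0.03 CPM in BUT+, 0.916 ± 0.238 in BUT-, 0.948 ± 0.234 in CYC+, 0.977 ± 0.111 in CYC- and 0.910 ± 0.033 CPM in control. Its BUT+ line means (1.07 CPM or more) all lay above those of control (0.877 to 0.943 CPM), which was not counted over all genes. The libraries overlapped (log2 fold change 0.29, SE 0.22, edgeR adjusted p = 0.582 in the second fit). *Gr39a*, a locus that encodes several receptors from alternative first exons, had 2.29 ± 0.31, 2.22 ± 0.45, 1.77 ± 0.37, 2.04 ± 0.34 and 2.17 ± 0.14 CPM in the same order. *Gr89a*, present in all bitter neurons of the labellum, had only 59 reads in all and 8 to 15 per treatment, with means from 0.0385 CPM (CYC-) to 0.0836 CPM (BUT+), and CYC+ *vs.* CYC- gave a log2 fold change of 0.96 (SE 0.65, edgeR adjusted p = 0.550). Summed CPM of the 5 genes was 5.79 ± 0.10 in BUT+, 5.49 ± 0.74 in BUT-, 5.49 ± 0.16 in CYC+, 5.58 ± 0.54 in CYC- and 5.44 ± 0.22 in control.

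Of the Gr28 pair, *Gr28b*, which acts in warmth and light sensing as well as in taste, averaged 1.33 ± 0.11 CPM in BUT+, 1.43 ± 0.24 in BUT-, 1.44 ± 0.16 in CYC+, 1.47 ± 0.12 in CYC- and 1.22 ± 0.17 CPM in control. Its log2 fold changes lay between -0.11 and 0.25 with an SE of 0.16. *Gr28a*, its neighbor on 2L, had 61 reads over all libraries.

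Outside these groups, *Gr98b* was lower in BUT- than in control heads. *Gr98b* (3R, 27542497 to 27543888) forms a receptor for the plant toxin L-canavanine with *Gr8a* and *Gr66a*. It had 1 to 4 reads in each BUT- library, 14 in all, and 2 to 16 reads in each control library, 53 in all. The line means were 0.0730 ± 0.0291 CPM in BUT- and 0.298 ± 0.145 CPM in control, with every BUT- line under every control line. This separation was not counted over all genes, and the lowest control library (0.0769 CPM) lay within the BUT- range. The log2 fold change was -2.0 (SE 0.44, edgeR adjusted p = 0.0137, second fit). It was not called without control line 1 (-1.79, adjusted p = 0.110) or with the libraries of a line summed (-2.05, adjusted p = 0.186), and adjusted p ranged from 0.00301 to 0.639 over the alternatives with no change of direction. BUT+ (24 reads, 0.141 ± 0.064 CPM), CYC+ (30 reads, 0.155 ± 0.059 CPM) and CYC- (42 reads, 0.20 ± 0.10 CPM) lay between the 2, and BUT+ *vs.* BUT- gave 0.93 (SE 0.48, adjusted p = 0.542).

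*Gr8a*, a partner of *Gr98b* on X (9227137 to 9228827), had its highest mean in control heads, without passing the test. So had 13 of the 44 members with at least 30 reads, *Gr8a* among them. The other partner, *Gr66a*, had not, with 1.1 CPM in control and 1.2 CPM in BUT-. *Gr8a* averaged 0.339 ± 0.068 CPM in BUT+, 0.436 ± 0.038 in BUT-, 0.357 ± 0.071 in CYC+, 0.352 ± 0.076 in CYC- and 0.595 ± 0.153 CPM in control. Line means of BUT+, CYC+ and CYC- did not overlap those of control, while the libraries did. How often this held over all genes was not counted, so it is not read as a result about *Gr8a*. The log2 fold changes against control were -0.80 (SE 0.28, edgeR adjusted p = 0.170) in BUT+, -0.45 (adjusted p = 0.457) in BUT-, -0.74 (adjusted p = 0.142) in CYC+ and -0.75 (adjusted p = 0.187) in CYC-. These comparisons share the same 6 control libraries.

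*Gr85a*, with no role that is well established, had most of its BUT+ reads in 1 line. It had 38 reads in BUT+, 13 in BUT-, 20 in CYC+, 10 in CYC- and 6 in control. Of its 87 reads in all, 28 (32.2%) came from BUT+ line 1, with 11 and 17 in its 2 samples. BUT+ line 2 had 3 and 5 reads (0.146 CPM), still above every control line, and BUT+ line 3 had 1 read in each sample, within the control range. The joint call was lost without BUT+ line 1 or BUT+ line 2, among others. The log2 fold change of BUT+ *vs.* control was 2.58 (SE 0.79) with an edgeR adjusted p of 0.108, and BUT+ *vs.* BUT- (38 and 13 reads) gave 1.72 (SE 0.69, adjusted p = 0.409). *Gr10b*, on X beside *Gr10a*, had 13 reads in BUT- and 28 in control heads, with a log2 fold change of -1.25 (SE 0.46, adjusted p = 0.171).

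**Figure D5:**
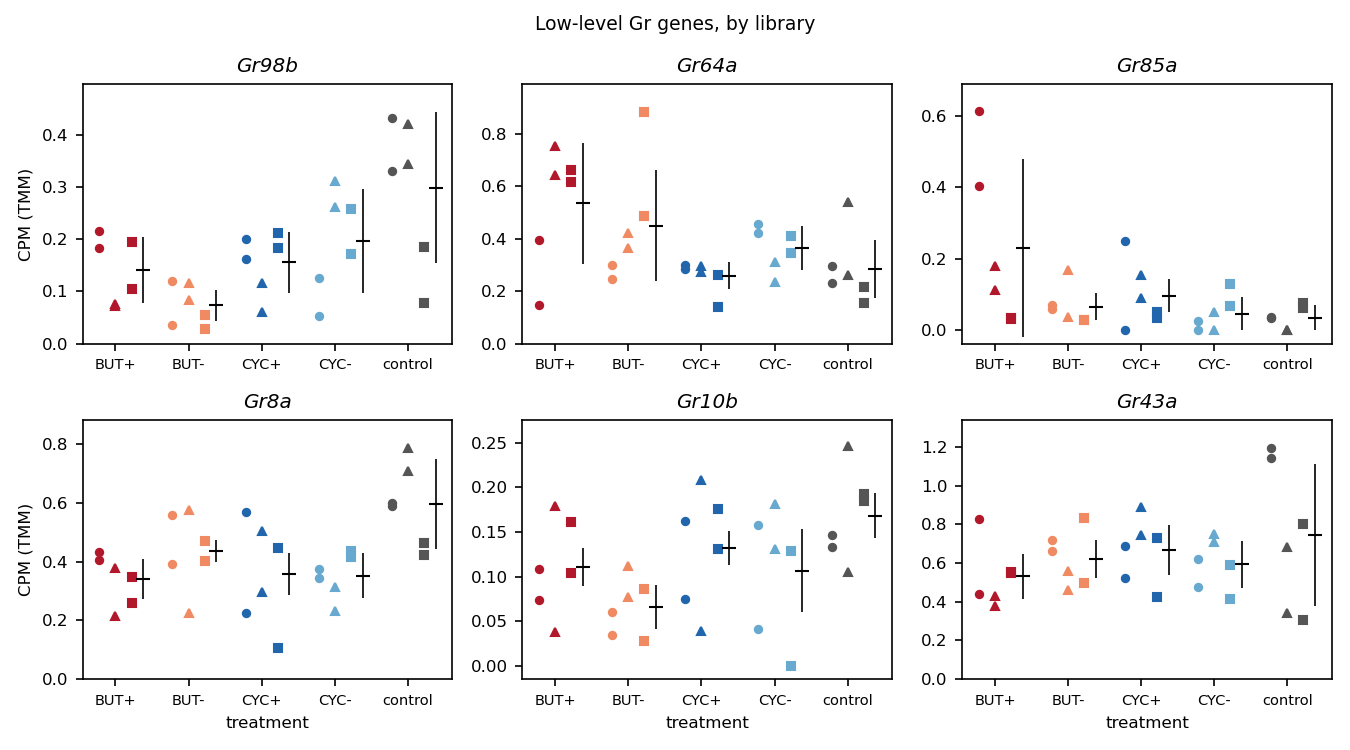
TMM-scaled CPM of 6 low-level Gr genes in every library (circles, triangles and squares are lines 1, 2 and 3), with the mean and SD of 3 line means in black. *Gr98b* is lowest in BUT- (0.0730 CPM) and highest in control (0.298 CPM), and the *Gr85a* is highest in BUT+ line 1 (0.508 CPM).

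Read over all treatments, 13 of the 44 members with at least 30 reads had their highest mean in control and 10, 6, 9 and 6 in BUT+, BUT-, CYC+ and CYC-, while 11 had their lowest in control. The same was not counted over all genes, so these counts do not set the members apart. Some of the 13 were near the floor, such as *Gr59c* with 31 reads in all. All 4 genes of the Gr98 group on 3R, of which *Gr98b*, *Gr98c* and *Gr98d* lie within 27542497 to 27547462, were among the 13. This group was picked after its values were seen. Its summed level was 0.464 ± 0.073 CPM in BUT+, 0.387 ± 0.180 in BUT-, 0.490 ± 0.157 in CYC+, 0.557 ± 0.224 in CYC- and 0.878 ± 0.154 CPM in control, and the highest libraries of BUT+ (0.577 CPM), CYC+ (0.699 CPM) and CYC- (0.734 CPM) reached the control range, which began at 0.577 CPM. *Gr98a*, *Gr98c* and *Gr98d* were not called in any comparison. The Gr93 group, elsewhere on 3R (*Gr93a*, a caffeine receptor subunit, to *Gr93d*) had 0.498 to 0.640 CPM in all 5 treatments.

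Other genes of taste organs were read beside the Gr genes. Of 23 such genes on a fixed list (pickpocket channels, taste Ir genes, *TrpA1*, *pain*, odorant-binding proteins of taste sensilla and *Poxn*, which specifies taste bristles), 8 entered the first fit and 20 the second, and none was called in any of the 6 comparisons or in the joint test (19.3% and 15.5% of all genes called there). The difference between this list and the Gr genes was not tested. *Ir25a* (10.8 to 21.3 CPM over the libraries) and *Ir76b* (10.6 to 18.9 CPM) serve as co-receptors in both taste and smell. *Poxn* had 0.709 to 1.65 CPM, with treatment means from 1.02 CPM (CYC+) to 1.21 CPM (BUT-). Yolk protein and *Lsp2* transcripts of the head fat body had a mean sum of 49840 CPM in BUT+, 39130 in BUT-, 16790 in CYC+, 27820 in CYC- and 31320 CPM in control. Libraries ranged from 45200 to 59210 CPM in BUT+, 16790 to 54500 in BUT-, 11100 to 22260 in CYC+, 12190 to 41650 in CYC- and 23470 to 41760 CPM in control. These differences were not tested, nor was their part in the Gr values.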

How the data were processed

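RNA of pooled female heads was sequenced. Per the methods, the authors trimmed reads with Trim Galore and Cutadapt and aligned them to release 6 of the fly genome with STAR. The deposited values are raw read counts per gene, neither normalized nor filtered, and how reads were assigned to genes or strands is not given in the sources used here. Groups, line numbers and sample numbers came from the labels. Members and gene lists were chosen with earlier results of these data known.

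TMM factors (0.948 to 1.07) and the quasi-likelihood tests came from edgeR 4.0.16 in R 4.3.3, with 5 treatment means over all 30 libraries and lines pooled, and a Benjamini-Hochberg adjusted p under 0.1. SEs were derived from the test's F statistic, as |log2 fold change| over √F. Low members were tested in a second fit (at least 30 reads over all libraries) that used the TMM factors of the first. Both fits were run on simulated data, drawn with no line effect. Only genes with more reads than *Gr98b* or *Gr85a* were changed there. The simulation therefore did not check the counting of 2 samples of a line as separate, nor calls on such scarce members. Members named with values include those past the 1 CPM filter and those called in any test. In each comparison, the 2 with the smallest unadjusted p in the second fit were also named. Some have values for only part of the treatments. Positions and exon overlaps came from Ensembl release 115 (BDGP6.54), by gene identifier. Alternatives were DESeq2 1.42.0, limma 3.58.1 (voom), other scaling and filters, summed or single samples, blocks and each line left out.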

Additional observations from a re-analysis of the deposited data

Results flagged for a closer look

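In 85 groups of 6 libraries (17 named members in 5 treatments), 7 held a library whose gap to the nearest of the others exceeded Dixon's critical share of the group's range. Chance alone gives about 1 group in 20 where the 6 values are independent and normal. Samples here come in 2 per line and some counts are low, so that rate cannot be set against the 7. *Gr64f* had 3.48 CPM in BUT+ line 3 sample 2, above 2.48 to 2.80 CPM in the other BUT+ libraries. *Gr61a* had 1.43 CPM in BUT- line 2 sample 2, above 0.606 to 0.843 CPM, and *Gr5a* had 0.244 CPM in BUT- line 1 sample 2, above 0.0280 to 0.0901 CPM. *Gr85a* had 0.168 CPM in BUT- line 2 sample 2, above 0.0276 to 0.0699 CPM. *Gr64a* had 0.141 CPM in CYC+ line 3 sample 1, below 0.262 to 0.300 CPM, and 0.541 CPM in control line 2 sample 1, above 0.154 to 0.294 CPM. In that same control library, the smallest of all with 21194086 counts, *Gr32a* had 0.885 CPM, below 1.17 to 1.31 CPM in the other control libraries.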

How the results depend on the processing

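Calls under the alternatives below are given without the share of all genes called there. A gained or lost call is therefore not read as a result about the members. No log2 fold change of *Gr64f* or *Gr98b* reversed. *Gr64f* in BUT+ *vs.* control ranged from 0.43 to 0.64, and *Gr98b* in BUT- *vs.* control from -2.59 to -1.52. Among members past the 1 CPM filter, summing the libraries of a line or keeping only first or only second samples left 0 calls in BUT+ *vs.* control in place of 1. DESeq2 gave 1 call in CYC- *vs.* control (*Gr61a*), and no filter gave 1 in BUT- *vs.* control (*Gr98b*). Among members with at least 30 reads, BUT+ *vs.* control gave 2 calls with DESeq2 and 0 with an adjusted p under 0.05, limma voom, summed lines, first samples or second samples. BUT- *vs.* control gave 0 with summed lines, first samples or second samples, and DESeq2 gave 1 in CYC- *vs.* control. The joint test gave 3 calls with no filter, 2 at an adjusted p under 0.05 and 0 with summed lines, in place of 6. The test of lines gave 0 at an adjusted p under 0.05, in place of 1. A filter of 1 CPM in all 30 libraries left 4 detected members of 9, and 0.5 CPM in 15 libraries gave 10.

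With each of the 15 lines left out in turn, calls past the 1 CPM filter ranged from 0 to 1 in BUT+, CYC+ and CYC- *vs.* control. In the second fit they ranged from 1 to 2 in BUT+ *vs.* control, from 0 to 1 in BUT-, CYC+ and CYC- *vs.* control, and from 2 to 5 in the joint test. The member called in BUT+ *vs.* control was not always *Gr64f*, whose edgeR adjusted p reached 0.199 with a line left out. The second-fit call in CYC+ *vs.* control was *Gr98b* without control line 3 and *Gr32a* without CYC+ line 3, and that in CYC- *vs.* control was *Gr61a* without CYC- line 1.

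Line and sample numbers were not taken to pair libraries in the main fits. Deviations of lines with the same number had a mean correlation of -0.056 (2 of 30 pairs over 0.1). Those of lines with other numbers had 0.028 (19 of 60 pairs). Differences of the second from the first sample did go together between lines, with a mean correlation of 0.218 (-0.312 to 0.738, 78 of 105 pairs over 0.1). The main fits leave this shared difference out. A replicate block by sample number gave 1 call in CYC+ *vs.* control in both fits (*Gr32a*), 2 in BUT+ *vs.* control in the second (*Gr64f* and *Gr85a*) and 3 in the test of lines. A block by line and sample number gave 1 in CYC+ *vs.* control in both fits. A fold change from 14 reads, as for *Gr98b* in BUT-, carries a wide error.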

Other observations

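*Gr57a*, which was too scarce to be tested (21 reads in all), had 10 of its reads (47.6%) in CYC- line 2, 5 in each of its 2 samples, while 7 other lines held the rest and 7 lines had none. It was picked for this after its values were seen. Together with *Gr85a* in BUT+ line 1 (32.2% of its reads), it is the member whose reads were most concentrated in 1 line, among the members with at least 10 reads.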
